A study of Homo sapiens with 12 samples.

Results

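FOS, FOSB, JUN, JUNB, EGR1, EGR3, IER2, IER3, DUSP1 and ATF3 are 10 immediate early response genes. They were chosen by symbol from the 25268 genes of an expression table of HEK293 cells that overexpressed the RNA-binding protein RBMX or carried an empty vector. This choice, and that of the gene lists below, was made with earlier results of these data known. Counts set beside the share of all genes are therefore a description. All 10 reached the mean of 0.5 FPKM (mapped fragments relative to the length of the transcript and the size of the library) over the 12 libraries that was asked of a gene to be tested, as did 14676 genes in all. In total RNA the mean of RBMX-overexpressing cells was above that of control cells for 10 of 10 genes, and for 8 of them, as for 11.9% of all genes tested, the 3 RBMX libraries lay above the 3 control libraries. JUNB and IER3 stood highest on the log2(FPKM + 1) scale, with log2 fold changes of 0.65 and 0.63. None of the 10 passed the threshold when adjusted over all genes, so these are differences in level and not calls. In polysomal RNA all 10 means were lower than in total RNA, in control and in RBMX-overexpressing cells alike, again without a call. EGR3 is the weakest case, since its RBMX difference turned negative under quantile normalization in total RNA.

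Immediate early genes are transcribed within minutes of a growth factor, serum or stress signal, from preformed factors and without new protein synthesis. Signals through the MAP kinase cascade reach the serum response factor, which binds CArG boxes, and CREB family proteins, which bind cyclic AMP response elements (CRE). Many of the transcripts are short-lived, partly through AU-rich elements in their 3′UTRs, so that the level falls again soon. FOS, FOSB, JUN and JUNB encode basic leucine zipper proteins that pair to form the transcription factor AP-1. ATF3 is a stress-induced member of the same wider protein family. EGR1 and EGR3 are zinc finger transcription factors, IER2 is a nuclear protein and IER3 a short-lived regulator of cell survival. DUSP1 is a phosphatase that switches MAP kinases off. Inhibitors of translation such as cycloheximide are known to raise the transcripts of such genes.

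HEK293 cells, which derive from human embryonic kidney, were transiently transfected with 2 µg of pCMV6-HIS-HA-RBMX, which drives tagged RBMX from a viral promoter, or with the mock empty vector (control, called wild type in the labels). Cells were collected 48 h later. All cultures received 10 µg/ml cycloheximide for a few minutes before lysis, nuclei were spun out, and the cytoplasmic lysate was separated on a sucrose gradient. Polysomal RNA came from the fractions with several ribosomes per mRNA, and total RNA was a pool of 20% of every fraction. By this account both libraries of a culture share a lysate, and the total pool includes the polysomal fractions. The labels also speak of separate dishes, so the pairing by culture used below is taken from the pooling and is not settled. With 3 cultures per vector there were 4 groups of 3 libraries, each built from 500 ng of RNA with a kit that does not mark strand. Only the mock-transfected cells serve as background, and cells without transfection or without cycloheximide were not analysed here.

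RBMX itself, an X-linked splicing factor, matched the labels. Its FPKM ran from 108 to 147 in control and from 1460 to 2070 in RBMX total RNA, and from 87.4 to 148 and 1070 to 1330 in polysomal RNA. All 10 HEK293 markers checked, among them VIM, NEFL and PAX2, were present, whereas UMOD of the adult kidney tubule was listed at 0 in all 12 libraries. The 6 fibroblast markers summed to 4.37 to 6.41 FPKM in control and 6.89 to 7.91 in RBMX total RNA, and to 4.72 to 7.44 and 8.17 to 9.90 in polysomal RNA, with COL1A1 and LUM the 2 that reached a mean of 0.5. The 6 markers of hepatocytes or kidney tubule summed to 0.947 to 1.41 and 1.96 to 2.49 FPKM in total RNA and to 0.527 to 0.871 and 1.12 to 1.57 in polysomal RNA, only AQP1 reaching a mean of 0.5. For 6 blood cell markers, of which only CD14 did, the sums lay between 1.32 and 2.18 in every group. The part of these marker levels in the results was not tested. Control replicate 3 stood apart from the other cultures. The summed HEK293 markers of its libraries were 498 and 459 FPKM, against 911 to 1050 in the RBMX libraries, and its mean absolute deviation from the group mean was 0.167 in total and 0.204 in polysomal RNA on the log2 scale, against 0.0655 to 0.123 in the other libraries. Values that moved most without this culture are also given without it. How many fragments lie behind each library is unknown, so no detection limit is given.

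The 10 genes are compact. In the GENCODE annotation of GRCh38 their median span was 3683 bases with 2 exons, against 32818 bases and 9 exons for the 12497 tested coding genes with a model. Of the 10 genes 9 spanned less than 10 kb, as did 19.5% of the coding genes. ATF3 is the exception, with a span of 55444 bases on chromosome 1 from 212565334 to 212620777. IER3, the most compact, spans 1356 bases on chromosome 6 from 30743199 to 30744554. JUN, on chromosome 1 from 58780788 to 58784327, IER2, on chromosome 19 from 13150415 to 13154908, and JUNB have models with 1 exon and so no intron. At least 3 copies of ATTTA, the core of AU-rich elements, were found in the 3′UTR of 7 of 10 members and of 44.6% of the 11875 coding genes with a 3′UTR of 100 bases or more. IER3 held 6 copies, FOS 5 and DUSP1 4, while IER2 held 0. The spans of FOSB and ERCC1, JUNB and HOOK2, IER2 and AC011446.2, IER3 and IER3-AS1, EGR3 and AC055854.1, and DUSP1 and AC022217.3 overlap on opposite strands. Since reads were not assigned by strand, strand does not separate fragments from the shared stretches. Spans include introns, and how much of each transcript is shared was not looked at.

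Promoter sequence was looked at because these genes are known for a small set of elements close to the start site. RefSeq (GRCh38.p14) windows of 250 bases before the transcript start matched 8 of the members (not IER3 and EGR3), with 2 windows for ATF3. Both strands were searched for the CArG box, the full CRE TGACGTCA, the CRE core site TGACG, which is the start of the full element, the AP-1 site TGANTCA and the TATA box TATAAA. A full CRE also counts as a core site on each strand. A core site was present in 7 of 8 members, in FOS, FOSB, JUN, JUNB, EGR1, IER2 and DUSP1, and in 21.2% of all 35116 windows. The TATA box letters were present in FOS, FOSB, JUNB, DUSP1 and ATF3, and in 10.7% of windows. In ATF3 they lay as far from the start as -230, and not in both of its windows. EGR1 alone held CArG boxes (1.16% of windows) and DUSP1 alone a full CRE (1.65%), and the AP-1 site, in 6.57% of windows, was in 0 members. Sequence farther than 250 bases before the start was not searched, so a missing element is missing from these windows only.

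The 140 bases just before the start are shown for 5 members whose windows carry these elements, which are in capitals. FOS lies at chr14:75278688-75278827 (plus strand), FOSB at chr19:45467856-45467995 (plus), JUNB at chr19:12791346-12791485 (plus), EGR1 at chr5:138465339-138465478 (plus) and DUSP1 at chr5:172771196-172771335 (minus), each written 5′ to 3′ on the strand of the gene.
FOS: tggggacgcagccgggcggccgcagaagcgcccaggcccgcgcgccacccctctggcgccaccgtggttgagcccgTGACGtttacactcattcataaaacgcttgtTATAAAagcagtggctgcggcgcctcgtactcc
FOSB: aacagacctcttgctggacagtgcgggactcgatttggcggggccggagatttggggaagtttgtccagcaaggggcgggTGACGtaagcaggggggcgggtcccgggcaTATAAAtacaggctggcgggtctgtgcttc
JUNB: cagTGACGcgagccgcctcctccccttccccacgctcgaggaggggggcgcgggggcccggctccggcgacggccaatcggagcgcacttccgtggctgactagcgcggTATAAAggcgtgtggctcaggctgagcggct
EGR1: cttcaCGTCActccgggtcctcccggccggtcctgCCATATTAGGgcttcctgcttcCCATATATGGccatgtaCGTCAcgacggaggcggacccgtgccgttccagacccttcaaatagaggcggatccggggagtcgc
DUSP1: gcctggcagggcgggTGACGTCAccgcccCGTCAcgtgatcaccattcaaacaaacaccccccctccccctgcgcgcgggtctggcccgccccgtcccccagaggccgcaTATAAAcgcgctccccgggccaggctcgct
In FOS and FOSB the capitals mark a CRE core site at -64 and -60 and a TATA box at -33 and -30, counted from the last base before the start as -1. In JUNB they mark a core site at -137 and a TATA box at -31. EGR1 has core sites on the opposite strand at -135 and -66 around CArG boxes at -105 and -83. In DUSP1 the full CRE begins at -125, an opposite core site at -111 and the TATA box at -30. These are letter matches only, and no binding was measured here.

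**Figure D1:**
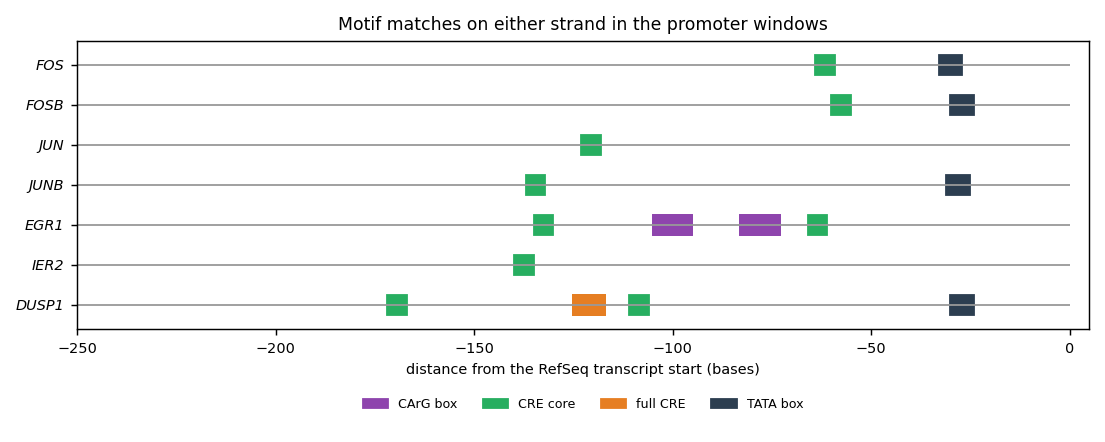
Positions of motif matches on either strand (coloured blocks) in the 250 bases before the RefSeq transcript start of the 7 members with 1 window and a CRE core site. The x axis is the distance from the start in bases. The TATA boxes of FOS, FOSB, JUNB and DUSP1 lie between -33 and -25, EGR1 has CArG boxes at -105 and -83, and DUSP1 has a full CRE at -125 that covers 2 core sites. The TATA box of ATF3, at -230 in 1 of its 2 windows, is not drawn.

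The 10 genes spanned a wide range of levels in FPKM, which is per transcript length and so can be set side by side. In control total RNA the order of the means was JUN (84.8 FPKM), ATF3 (75.0), IER2 (57.0), IER3 (40.6), DUSP1 (26.0), EGR1 (9.20), JUNB (7.42), FOS (1.92), FOSB (1.58) and EGR3 (0.717). The ranges of neighbours overlapped for JUN and ATF3 and for EGR1 and JUNB, and were apart elsewhere in the order. In RBMX total RNA the order was the same, with ATF3 and IER2 overlapping as well. In control polysomal RNA it was also the same, with overlaps of JUN with ATF3, ATF3 with IER2, EGR1 with JUNB and FOS with FOSB. In RBMX polysomal RNA the mean of IER2 (70.4) was above that of ATF3 (66.7) and the mean of JUNB (11.6) above that of EGR1 (10.8), with overlapping ranges in both pairs. FOS, the best known gene of the group, was thus near the lower end in every group and JUN at the top.

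**Figure D2:**
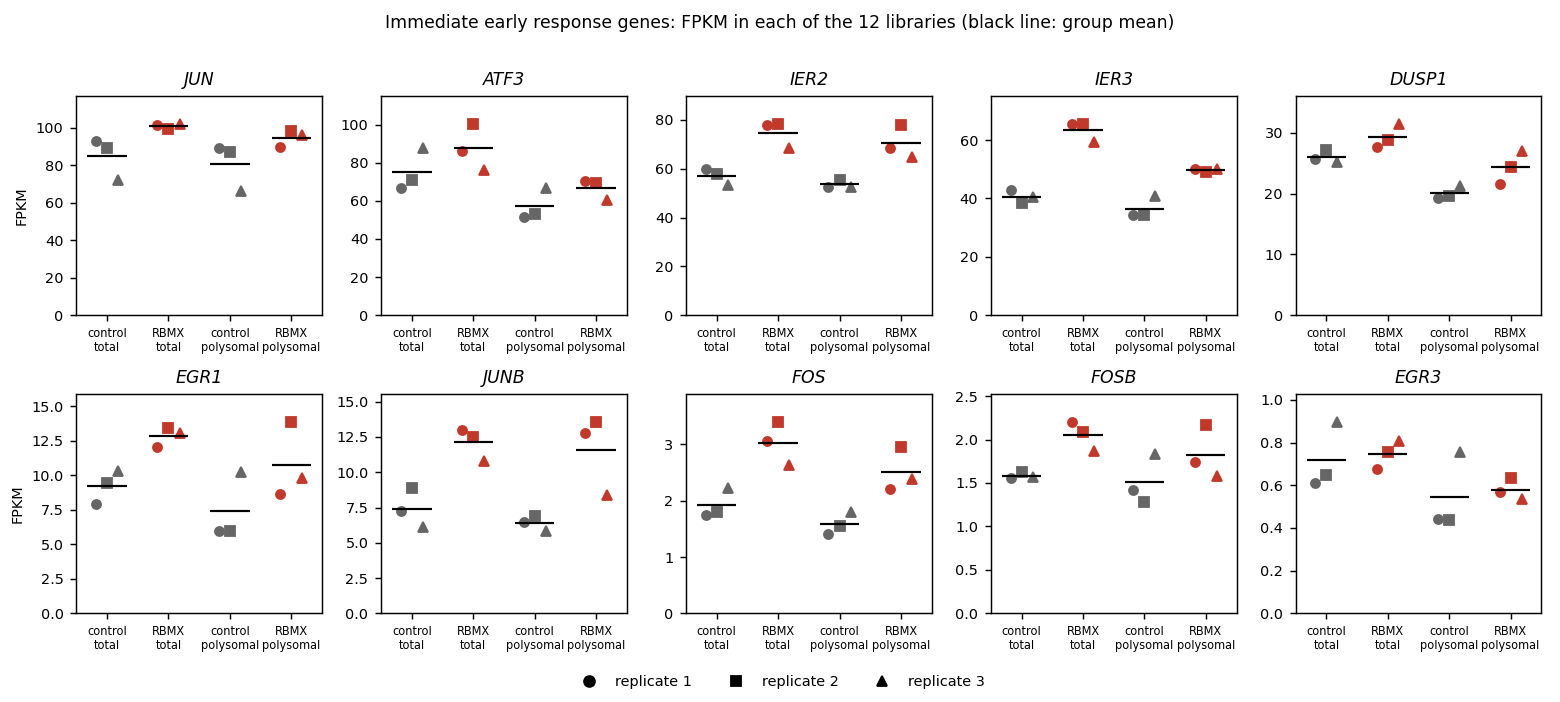
FPKM of the 10 immediate early genes (y axis, linear and from 0, one scale per gene) in the 12 libraries. Points are libraries, shaped by replicate, grey for control and red for RBMX, and black lines are means of 3. For IER3 the RBMX libraries (59.3 to 65.4 in total and 49.0 to 50.1 in polysomal RNA) lie above the control libraries (38.4 to 43.0 and 34.3 to 40.7), while for EGR3 the groups overlap in both fractions.

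The first comparison was between RBMX-overexpressing and control cells in total RNA. On the log2(FPKM + 1) scale the largest differences were those of JUNB and IER3, followed by FOS, EGR1 and IER2, and each of these 5 had RBMX libraries that all lay above the control libraries. This scale understates the change of genes with a low FPKM such as FOS, FOSB and EGR3. With a pseudocount of 0.1 the difference of FOS was 0.63, close to that of IER3 (0.64), and without control replicate 3 that of JUNB (0.54) was below that of IER3 (0.63). With limma and Benjamini-Hochberg adjustment over all genes 0 of the 10 members were called, beside 24 genes or 0.164% of those tested. At an unadjusted p under 0.05, 6 of 10 members were higher (FOS, FOSB, JUNB, EGR1, IER2 and IER3) and 0 lower. At that level 1164 of all genes (7.93%) were higher and 1592 lower. The groups did not overlap, with RBMX above, for 8 of 10 members, FOS, FOSB, JUN, JUNB, EGR1, IER2, IER3 and DUSP1, and for 11.9% of all genes tested. Without control replicate 3 the number was 10, with 20.5% of all genes. The median log2 fold change of the 10 was 0.32, beside a median of 0 over all genes, of which 49.7% were higher and the quartiles were -0.12 and 0.14. An exact permutation test of 3 against 3 libraries cannot go below a two-sided p of 0.1, the value of each of the 8 genes named.

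Among the AP-1 subunits, JUNB measured 7.25, 8.88 and 6.11 FPKM in control and 13.02, 12.5 and 10.8 in RBMX cells. The RBMX libraries lay above the control libraries, with a log2 fold change of 0.65 (standard error, SE, of 0.14 and limma adjusted p of 0.174). FOS measured 1.74, 1.80 and 2.22 FPKM in control and 3.06, 3.38 and 2.63 in RBMX cells. Its groups did not overlap either, at a log2 fold change of 0.46 (SE 0.10, limma adjusted p = 0.174). FOSB, a FOS paralog, had 1.55, 1.63 and 1.57 FPKM in control and 2.20, 2.09 and 1.87 in RBMX cells. The gap was small but the 3 control values were close together, and the log2 fold change was 0.24 (SE 0.056, limma adjusted p = 0.176). JUN, the most abundant subunit, had 92.8, 89.4 and 72.2 FPKM in control and 102, 99.3 and 102 in RBMX cells. Control replicate 3 was the low library of JUN, and the log2 fold change of 0.26 (SE 0.10, limma adjusted p = 0.271) was 0.15 without it.

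ATF3 showed a wider spread, with 66.5, 70.9 and 87.6 FPKM in control and 86.3, 100.2 and 76.1 in RBMX cells. The groups overlapped, since control replicate 3 was above RBMX replicates 1 and 3. The log2 fold change of ATF3 was 0.22 (SE 0.15, 95% interval -0.14 to 0.58, limma adjusted p = 0.455). It was 0.34 without control replicate 3, 0.14 without control replicate 1 and 0.12 without RBMX replicate 2.

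Of the zinc finger factors, EGR1 had 7.89, 9.42 and 10.3 FPKM in control and 12.0, 13.4 and 13.1 in RBMX cells. All 3 RBMX libraries were the higher ones, at a log2 fold change of 0.45 (SE 0.10, limma adjusted p = 0.176). EGR3 had 0.610, 0.646 and 0.894 FPKM in control and 0.678, 0.757 and 0.809 in RBMX cells. Its groups overlapped, and the log2 fold change of 0.029 (95% interval -0.16 to 0.21, limma adjusted p = 0.859) was -0.021 under quantile normalization and -0.015 without control replicate 1.

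IER3 had the smallest p-value of the 10. It measured 43.0, 38.4 and 40.5 FPKM in control and 65.4, 65.4 and 59.3 in RBMX cells. The groups were far apart for their spread, with a log2 fold change of 0.63 (SE 0.069, 95% interval 0.46 to 0.80) and a limma adjusted p of 0.0725. That p passed the threshold without RBMX replicate 3 (0.0363), with all 12 libraries in one fit (0.0114), with a minimum mean FPKM of 0.1 (0.0455) and with small RNA genes left out of the genes tested (0.0494), and ranged from 0.0114 to 0.41 over all alternatives. Over all genes the number called without RBMX replicate 3 was 178. IER2 had 59.8, 57.7 and 53.3 FPKM in control and 77.9, 78.2 and 68.4 in RBMX cells. These groups did not overlap and the log2 fold change was 0.39 (SE 0.079, limma adjusted p = 0.170).

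DUSP1, the MAP kinase phosphatase, had 25.7, 27.1 and 25.2 FPKM in control and 27.6, 28.8 and 31.4 in RBMX cells. The lowest RBMX library of DUSP1 was just above the highest control library. Its log2 fold change was 0.16 (SE 0.067, limma adjusted p = 0.273), and under quantile normalization the groups overlapped. In these bulk samples a larger share of cells with the transcript and more transcript per cell cannot be told apart.

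**Figure D3:**
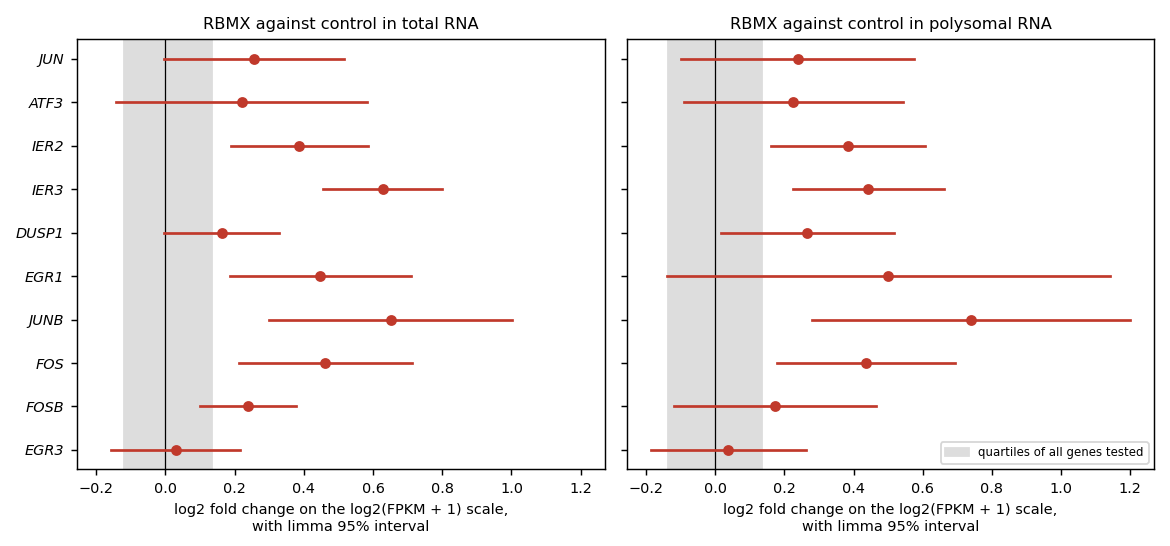
Log2 fold change of RBMX against control on the log2(FPKM + 1) scale (x axis) with its limma 95% interval (lines) for each member, in total RNA on the left and polysomal RNA on the right. The grey band is the range between the quartiles of all genes tested, -0.12 to 0.14 in total and -0.14 to 0.13 in polysomal RNA. All 10 estimates are above 0, from 0.029 (EGR3) to 0.65 (JUNB) in total and from 0.038 (EGR3) to 0.74 (JUNB) in polysomal RNA, although that of EGR3 turned to -0.021 in total RNA under quantile normalization.

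The same comparison in polysomal RNA is not independent of the first, since total RNA also pooled the polysomal fractions. It asked whether the difference was also seen among transcripts loaded with ribosomes. On the log2(FPKM + 1) scale JUNB and EGR1 had the largest log2 fold changes there, followed by IER3, FOS and IER2. With a pseudocount of 0.1 that of FOS was 0.62 and came after JUNB (0.82), before EGR1 (0.555) and IER3 (0.45), so the order holds for the scale used. With limma 0 of 10 members were called, beside 7 genes or 0.0477% of those tested. At an unadjusted p under 0.05, 5 members were higher (FOS, JUNB, IER2, IER3 and DUSP1) and 0 lower. At that level 757 of all genes (5.16%) were higher and 958 lower. The RBMX libraries lay above the control libraries for 6 members, FOS, JUN, JUNB, IER2, IER3 and DUSP1, against a background of 10.0% of genes. Without control replicate 3 the number was 10, with 19.1% of all genes, and under quantile normalization it was 4 (FOS, JUNB, IER2 and IER3). The median log2 fold change of the 10 was 0.33, with a median of 0 and 49.5% higher among all genes.

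JUNB had 6.47, 6.90 and 5.86 FPKM in control and 12.8, 13.5 and 8.42 in RBMX polysomal RNA. RBMX replicate 3 was the low library of its group, though above all controls. The log2 fold change of JUNB was 0.74 (SE 0.18, limma adjusted p = 0.400), and without RBMX replicate 3 it was 0.94 with an adjusted p of 0.0448, the only setting in which a member was called in polysomal RNA and one in which 126 of all genes were. FOS had 1.42, 1.56 and 1.81 FPKM in control and 2.20, 2.94 and 2.39 in RBMX cells. All RBMX values were higher, at a log2 fold change of 0.44 (SE 0.10, limma adjusted p = 0.400). FOSB had 1.41, 1.28 and 1.83 FPKM in control and 1.74, 2.17 and 1.58 in RBMX cells. The overlap came from control replicate 3 (1.83 FPKM), and the log2 fold change was 0.17 (95% interval -0.12 to 0.47, limma adjusted p = 0.559). It was 0.265 without control replicate 3 (limma adjusted p = 0.288), when the groups did not overlap, 0.11 without control replicate 2 and 0.0895 without RBMX replicate 2. JUN had 89.3, 87.0 and 66.1 FPKM in control and 89.8, 98.1 and 96.2 in RBMX cells. The lowest RBMX library of JUN was just above the highest control, and the log2 fold change of JUN was 0.24 (SE 0.13, limma adjusted p = 0.496), or 0.10 without control replicate 3.

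ATF3 had 51.5, 53.3 and 66.7 FPKM in control and 70.5, 69.3 and 60.5 in RBMX polysomal RNA. As in total RNA, control replicate 3 was high for ATF3, and the groups overlapped (log2 fold change 0.23, 95% interval -0.090 to 0.54, limma adjusted p = 0.494). Without control replicate 3 they did not overlap, and the fold change was 0.34 (limma adjusted p = 0.246). EGR1 had 6.01, 5.94 and 10.2 FPKM in control and 8.63, 13.8 and 9.81 in RBMX cells. Control replicate 3 was again the high control, and the interval of the EGR1 log2 fold change was wide (0.50, 95% interval -0.14 to 1.14, limma adjusted p = 0.471). Without that culture it was 0.73 (limma adjusted p = 0.252), and without RBMX replicate 2 it was 0.32. EGR3 had 0.441, 0.436 and 0.757 FPKM in control and 0.567, 0.634 and 0.536 in RBMX cells. The overlap of EGR3 came from control replicate 3, and the log2 fold change was 0.038 (95% interval -0.19 to 0.26, limma adjusted p = 0.869), 0.13 without that library and -0.012 without control replicate 2.

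IER3 had 34.3, 34.3 and 40.7 FPKM in control and 50.1, 49.0 and 50.1 in RBMX polysomal RNA. The RBMX libraries of IER3 were close together and lay above the controls, at a log2 fold change of 0.44 (SE 0.088, limma adjusted p = 0.400). IER2 had 52.7, 55.4 and 52.7 FPKM in control and 68.5, 78.1 and 64.8 in RBMX cells. The groups of IER2 were well apart, with a log2 fold change of 0.38 (SE 0.089, limma adjusted p = 0.400). DUSP1 had 19.3, 19.6 and 21.2 FPKM in control and 21.6, 24.4 and 27.1 in RBMX cells. The RBMX libraries of DUSP1 were the higher ones, but the lowest was close to the highest control (log2 fold change 0.27, SE 0.10, limma adjusted p = 0.417).

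Whether the RBMX difference was itself unequal between the fractions was tested over all 12 libraries by taking the log2 fold change in total RNA from that in polysomal RNA. No member passed (0 of 10, limma adjusted p = 1.00 for each), beside 3 of all genes tested or 0.0204%, or 5 with the culture as a block. At an unadjusted p under 0.05 there were 0 members and 88 genes. The member farthest from 0 was IER3, where the polysomal fold change was the smaller by -0.19 (95% interval -0.43 to 0.063), followed by DUSP1 (0.10, 95% interval -0.16 to 0.37) and JUNB (0.090, 95% interval -0.45 to 0.63). The fit behind these intervals did not use which libraries share a culture, so they also hold spread between cultures. In it the intervals of EGR1 (-0.60 to 0.70) and ATF3 (-0.45 to 0.46) leave room for differences as large as the RBMX effects themselves. Within cultures, polysomal minus total of ATF3 was -0.36, -0.41 and -0.39 in control and -0.29, -0.53 and -0.33 in RBMX cultures. The intervals do not show that the fractions responded alike.

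The last comparison set polysomal against total RNA, that is, the relative level of each transcript in either library of a culture. Since the total pool includes the polysomal fractions, it sets a part against the whole. All 10 members had lower means in polysomal RNA in both kinds of cells, with median log2 fold changes of -0.16 in control and -0.17 in RBMX-overexpressing cells, while all genes had medians of 0 and -0.0011. ATF3 and DUSP1 were the farthest down in control cells, and ATF3 and IER3 in RBMX-overexpressing cells. Under quantile normalization FOSB in control cells and JUN in RBMX-overexpressing cells turned to the other side of 0. With limma 0 of 10 members were called in control cells, where 12 genes or 0.0818% were called (6 with the culture as a block). In RBMX-overexpressing cells 0 members were called beside 196 genes or 1.34% (4 with the block and 21 to 23 without any 1 RBMX culture). At an unadjusted p under 0.05 ATF3 and DUSP1 were lower in control cells, where 4.84% of all genes were. With the culture as a block FOS and EGR3 came under 0.05 as well, while the number of all genes under it in either direction went from 1180 to 3085. In RBMX-overexpressing cells ATF3, IER3, DUSP1 and EGR3 were under it, with and without the block, beside 13.0% of all genes lower without the block.

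Within cultures, 6 members were lower in the polysomal than in the total library of all 6 cultures (FOS, JUN, EGR3, IER2, DUSP1 and ATF3). So were 2415 of the 14676 genes tested, or 16.5%. Higher in all 6 cultures were 0 members and 2346 of the genes tested. Under quantile normalization 4 members were lower in all 6 (FOS, EGR3, DUSP1 and ATF3), with 11.8% of all genes. ATF3 was lower in the polysomal library by a log2 difference of -0.36, -0.41 and -0.39 in control cultures 1 to 3 and of -0.29, -0.53 and -0.33 in RBMX cultures 1 to 3. The culture nearest to 0 was farther from 0 than that of any other member, and yet the control fold change of -0.39 (limma adjusted p = 0.612, and 0.117 with the culture as a block) did not pass. Without control replicate 3 it was -0.38 (limma adjusted p = 0.0738), when 199 of all genes were called. DUSP1 differed by -0.40, -0.45 and -0.24 in control and by -0.34, -0.23 and -0.21 in RBMX cultures. Its fold changes were -0.36 in control cells (limma adjusted p = 0.419, 0.172 with the block, and 0.0617 without control replicate 3) and -0.26 in RBMX-overexpressing cells (0.198, and 0.169 with the block).

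IER3 differed by -0.32, -0.16 and 0.0066 in control cultures and by -0.38, -0.41 and -0.24 in RBMX cultures. Only control replicate 3 was not lower in polysomal RNA, and the fold change in RBMX-overexpressing cells was -0.34 (limma adjusted p = 0.0575, and 0.149 with the block). It passed the threshold when small RNA genes were left out of the genes tested (0.0429). EGR1 was the most uneven member, at -0.34, -0.59 and -0.0088 in control and -0.44, 0.039 and -0.38 in RBMX cultures. Control replicate 3 and RBMX replicate 2 were near 0 for EGR1 while the other 4 cultures were below. FOS was lower by between -0.10 and -0.34, and EGR3 by between -0.10 and -0.24. JUN, IER2, JUNB and FOSB had median differences over the 6 cultures of -0.068, -0.0675, -0.097 and -0.12. FOSB was above 0 in control replicate 3 (0.14) and in RBMX replicate 2 (0.038), and JUNB in RBMX replicate 2 (0.10).

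**Figure D4:**
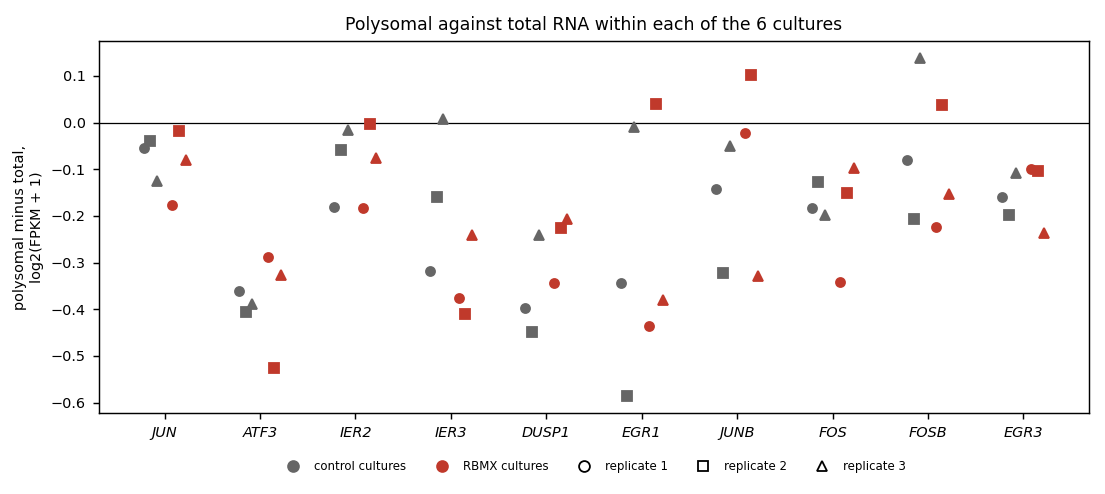
Polysomal minus total log2(FPKM + 1) (y axis) for each member (x axis) within each of the 6 cultures, grey for control and red for RBMX, shaped by replicate. ATF3 lies between -0.29 and -0.53 and DUSP1 between -0.21 and -0.45 in all 6 cultures, whereas EGR1 runs from -0.59 to 0.039 and FOSB from -0.22 to 0.14. Under quantile normalization FOSB in control and JUN in RBMX-overexpressing cells have means just above 0.

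Other immediate early genes were followed in a list of 42, of which 41 were tested and EGR4 was too low. No gene of this list was called in any comparison. In total RNA 33 of 41 were higher and 8 lower in RBMX-overexpressing cells, with a median log2 fold change of 0.17, beside 49.7% higher and a median of 0 over all genes. At an unadjusted p under 0.05, 15 were higher and 2 lower, where 1164 of all genes (7.93%) were higher and 1592 lower. Highest were CTGF, a secreted matricellular protein, with a log2 fold change of 0.69 (limma adjusted p = 0.188) and the stress sensor GADD45B with 0.58 (0.170). Lowest were the antiproliferative gene BTG1 at -0.26 (0.228) and the orphan nuclear receptor NR4A3 at -0.19 (0.224). In polysomal RNA 36 were higher and 5 lower, with a median of 0.17, beside 49.5% higher over all genes. CTGF (0.86, limma adjusted p = 0.400) and GADD45B (0.60, 0.400) were again the highest, BTG1 (-0.30, 0.425) and NR4A3 (-0.18, 0.403) the lowest. Polysomal means were lower than total means for 37 of 41 in control cells and 35 of 41 in RBMX-overexpressing cells, with medians of -0.14 and -0.13. Over all genes 49.8% were higher in polysomal RNA in control cells and 49.3% in RBMX-overexpressing cells. ZFP36, which encodes an mRNA decay factor, had the lowest value of the list in both kinds of cells, -0.59 and -0.40 (limma adjusted p = 0.632 and 0.234).

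**Figure D5:**
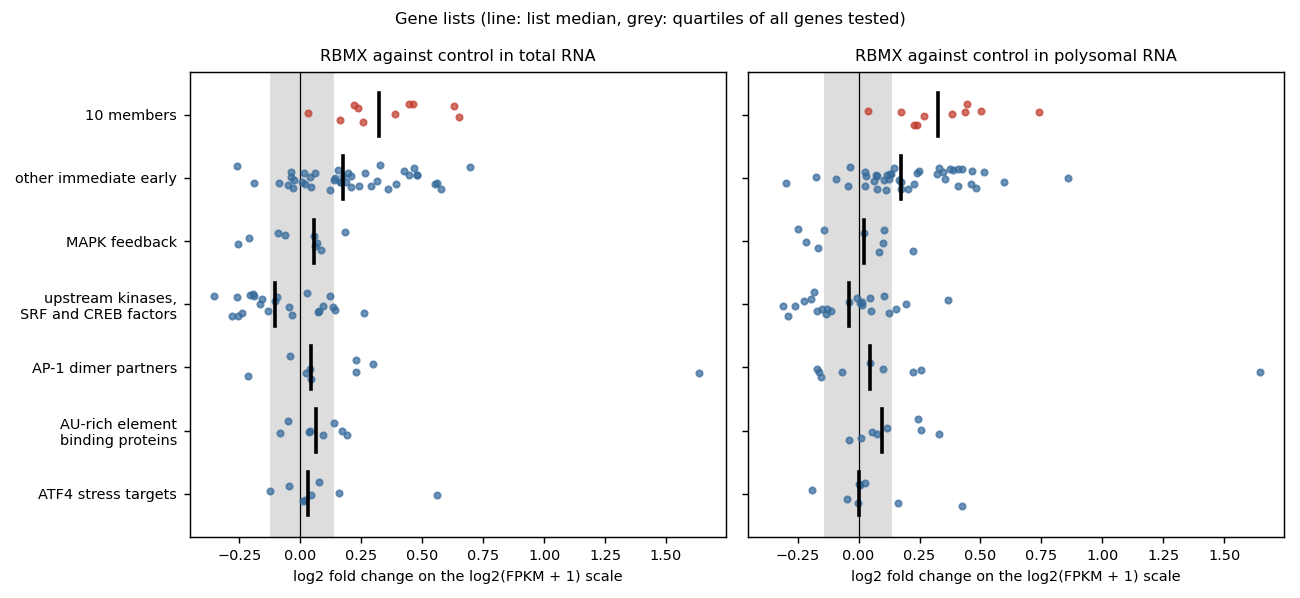
Log2 fold change of RBMX against control on the log2(FPKM + 1) scale (x axis) for each gene (points) of the 10 members and of 6 gene lists (rows), in total RNA on the left and polysomal RNA on the right. Black lines are list medians and the grey band is the range between the quartiles of all genes tested. PPP1R15A, ZFP36, ZFP36L1 and ZFP36L2 stand both in the row of other immediate early genes and in another row. The medians are 0.32 and 0.33 for the members, 0.17 and 0.17 for the other immediate early genes, and between -0.10 and 0.10 for the remaining lists.

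The genes that act upstream of the members were followed in both fractions. Of 23 kinases and SRF or CREB family factors 8 were higher and 15 lower in total RNA, with a median of -0.10 and with 0 higher and 7 lower at an unadjusted p under 0.05, where 1164 of all genes were higher and 1592 lower. The lowest were ELK3, an ETS factor that works with SRF, at -0.35 (limma adjusted p = 0.200), and the ribosomal S6 kinase RPS6KA2 at -0.28 (0.260), and the highest the SRF coactivator MKL1 at 0.26 (0.472) and the kinase BRAF at 0.14 (0.389). In polysomal RNA 10 were higher and 13 lower, with a median of -0.039, ATF1 (-0.31) and ELK3 (-0.29) lowest and MKL1 (0.37) and RPS6KA1 (0.20) highest. At an unadjusted p under 0.05 there were 0 higher and 2 lower, where 757 of the 14676 genes tested were higher and 958 lower. The 9 feedback inhibitors of MAP kinase signalling, DUSP, SPRY and SPRED genes among them, were divided, 5 higher and 4 lower in either fraction, with medians of 0.055 and 0.020. SPRED2 was the lowest (-0.26 in total and -0.25 in polysomal RNA) and the phosphatase DUSP4 the highest (0.18 and 0.22).

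Of 10 further partners of AP-1 dimers 9 were tested, and 7 were higher and 2 lower in total RNA (median 0.044), 5 and 4 in polysomal RNA (median 0.046). BATF2 was the highest, with log2 fold changes of 1.63 and 1.65 but SEs of 0.46 and 0.50 (limma adjusted p = 0.188 and 0.400). RBMX replicate 3 was its low RBMX culture, at 2.43 FPKM in total RNA against 9.60 and 8.87 in replicates 1 and 2. In polysomal RNA it was at 2.34 against 8.98 and 10.75. The 8 proteins that bind AU-rich elements had medians of 0.065 and 0.095, with 6 and 7 higher. ZFP36, ZFP36L1 and ZFP36L2 among them also stand in the list of other immediate early genes. The 8 targets of the stress factor ATF4 had medians of 0.031 and 0.0037. PPP1R15A, which is itself an immediate early gene and stands in both lists, was their highest member (0.56 in total and 0.42 in polysomal RNA, limma adjusted p = 0.170 and 0.425). DDIT3, the ATF4 target whose product is CHOP, was lower in polysomal than in total RNA of RBMX-overexpressing cells by a log2 fold change of -0.70 (limma adjusted p = 0.0701). No gene of these lists was called in any comparison.

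The members' joint pattern over the libraries can be summarised by the mean of their z-scores. It was -0.35, -0.20 and -0.19 in control total RNA, -1.25, -1.22 and -0.59 in control polysomal RNA, 1.04, 1.22 and 0.84 in RBMX total RNA and 0.020, 0.71 and -0.035 in RBMX polysomal RNA. The RBMX total libraries were the 3 highest and the control polysomal libraries the 3 lowest. Of 14162 other genes, RELB, a subunit of NF-kB, was the most like it, with a Pearson r of 0.979 over the 12 libraries. CSRNP1, an immediate early gene of the list above, the amino acid transporter subunit SLC3A2, the transcription factor SNAI1 and the potassium channel gene KCNN1 followed with 0.963 each. Mean FPKM of RELB was 2.14 in control total, 3.70 in RBMX total, 1.56 in control polysomal and 2.72 in RBMX polysomal RNA. The 12 points are 6 cultures with 2 libraries each and share the contrast of vector and fraction, so these correlations are a description.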

How the data were processed

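RNA of 6 HEK293 cultures, 3 per vector, was measured in 12 libraries by RNA-seq. The authors deposited FPKM values per gene symbol. The submitters' processing notes name CASAVA 1.8, TopHat2 2.0.13, Cufflinks 2.2.1, Cuffnorm and hg19, without roles, and the paper's methods describe other tools for its counts. Whether the FPKM values were scaled further between libraries is not given in the sources used here, and depth is unknown, so precision rests on the spread of 3 cultures. FPKM values are no counts, so a count model was not used.

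Groups came from the labels, and 0 columns were left without a sample. Tests used log2(FPKM + 1), the pseudocount being 1, on the 14676 genes whose mean reached 0.5 FPKM, with limma 3.58.1 (R 4.3.3; lmFit, eBayes with intensity trend). RBMX was compared with control within each fraction and polysomal with total RNA within each vector, on 6 libraries each, and the difference between fractions on all 12. Adjustment was by Benjamini-Hochberg over all genes tested, with a threshold of 0.05. The fits were tested on simulated data with unpaired libraries and planted changes larger than the differences of the members. That test therefore does not show how well differences of the members' size are found.

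The members and gene lists were chosen with earlier results of these data known. Named are all members, RBMX, in each list the 2 highest and 2 lowest genes where values are given, and the 5 genes most correlated with the members' mean z-score. Not every such gene of the smaller lists is printed. Total and polysomal RNA of a culture are paired through the shared gradient, although the labels also speak of separate dishes. Across genes, the correlation of their deviations from the group mean was 0.425, 0.61 and 0.748 in control and 0.173, 0.0309 and 0.634 in RBMX cultures, small RNA genes left out. The values of RBMX cultures 1 and 2 lie within the range of same-numbered control and RBMX libraries, -0.0733 to 0.35. For RBMX cultures 1 and 2 the correlations therefore do not show the pairing. Gene models came from GENCODE v29, promoters from RefSeq GRCh38.p14. Python 3.11.15, numpy 2.4.6, pandas 2.3.3 and matplotlib 3.10.9 were used for counts and plots. The alternatives were another pseudocount, other filters, rescalings, fits and blocks, each replicate left out and, added after seeing the data, small RNA genes left out.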

Additional observations from a re-analysis of the deposited data

How the results depend on the processing

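No member was called as reported, in any of the 5 comparisons. In total RNA 1 member, IER3, was called with a minimum mean FPKM of 0.1, with all 12 libraries in one fit and with small RNA genes left out, and leaving out 1 replicate gave 0 to 1. In polysomal RNA leaving out 1 replicate also gave 0 to 1 (JUNB, without RBMX replicate 3). For polysomal against total RNA of RBMX-overexpressing cells 1 member, IER3, was called with small RNA genes left out. The number of members with all RBMX libraries above control ran from 8 to 10 in total and from 6 to 10 in polysomal RNA when 1 replicate was left out, with 10 in both without control replicate 3, when the shares of all genes were 20.5% and 19.1% (11.9% and 10.0% as reported). Quantile normalization gave 7 and 4 members, with 9.04% and 8.66% of genes.

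The numbers of all genes called moved widely. In total RNA they ran from 13 (replicate block) to 178 (without RBMX replicate 3), with 73 without a filter, 62 at a minimum mean FPKM of 0.1, 60 with all 12 libraries in one fit and 40 without control replicate 3. In polysomal RNA they ran from 2 (small RNA genes left out) to 126 (without RBMX replicate 3). Polysomal against total RNA gave 6 to 199 in control cells, the highest without control replicate 3 and 20 without control replicate 1, and 4 to 417 in RBMX-overexpressing cells, the highest without small RNA genes and 21 to 23 without any 1 RBMX replicate. The difference between fractions gave 0 to 7. The cause was not tested.

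The RBMX difference of EGR3 reversed in total RNA to -0.0214 under quantile normalization and ran from -0.0152 to 0.102 when 1 replicate was left out, and in polysomal RNA from -0.0117 to 0.134. For polysomal against total RNA, FOSB in control cells reversed to 0.00589 and JUN in RBMX-overexpressing cells to 0.0171 under quantile normalization, and with 1 replicate left out FOSB ran from -0.143 to 0.0292 and JUNB in RBMX-overexpressing cells from -0.175 to 0.0398. For the difference between fractions IER2 reversed to 0.00718 under median-ratio rescaling and to 0.0651 under quantile normalization, and JUN to 0.0711 under the latter. With 1 replicate left out, this difference ran from -0.0761 to 0.0453 for FOS, -0.142 to 0.0299 for FOSB, -0.0551 to 0.024 for JUN, -0.0027 to 0.212 for JUNB, -0.0955 to 0.206 for EGR1, -0.0151 to 0.0534 for EGR3, -0.0505 to 0.0449 for IER2 and -0.0406 to 0.078 for ATF3.

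With the replicate block the members called stayed at 0 in all 5 comparisons. Control and RBMX cultures share only a number, and their same-numbered deviations correlated from -0.0733 to 0.35, so for these the block is no pairing. EGR3 was not tested at a minimum mean FPKM of 1. With 3 cultures per group, unknown depth and 1 culture apart, small differences of low genes such as EGR3, FOSB and FOS cannot be resolved.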
